A study of Mus musculus with 9 samples.

Results

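Metallothioneins and zinc transporters were described through 10 genes, which are all among the 24187 genes of the deposited tables and all had reads in both of them. They are the metallothionein genes Mt1 and Mt2, the transcription factor gene Mtf1, the zinc exporter genes Slc30a1, Slc30a5, Slc30a6 and Slc30a7, and the zinc importer genes Slc39a1, Slc39a10 and Slc39a14. Mt1, Mt2 and Slc30a1 were chosen by their measured levels in these libraries, which were higher when the inhibitor NCT503 was added to lipopolysaccharide (LPS) and not with LPS alone, and the other 7 were set beside them as genes of the same pathway. The values of the 10 genes are therefore given as a description, and nothing is read from the calls given for them below.

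The cells were bone-marrow-derived macrophages of C57BL/6 mice at postnatal week 8, grown from marrow for 6 days with the macrophage growth factor M-CSF. One group of 3 RNA-seq libraries came from cells kept for 6 h with LPS, a component of bacterial cell walls, at 500 ng/ml and NCT503 at 50 µM. NCT503 is a small-molecule inhibitor of PHGDH, which catalyses the first step of making serine from a glycolytic intermediate. A second group of 3 libraries came from cells kept for 6 h with LPS alone at 500 ng/ml, and 3 control libraries came from cells kept for 6 h in complete medium. NCT503 was given only together with LPS, so its effect in resting macrophages was not measured, and the labels name no solvent for the other groups.

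Metallothioneins are small cysteine-rich proteins that bind zinc, copper and cadmium in the cytosol. Free zinc activates MTF1, a zinc finger protein that binds metal response elements and drives the mouse Mt1, Mt2 and Slc30a1 genes. SLC30 proteins (ZnT) carry zinc out of the cytosol, across the plasma membrane or into organelles, and SLC39 proteins (ZIP) carry it into the cytosol. In macrophages, zinc handling is part of the response to bacteria, since zinc can be withheld from microbes or raised to toxic levels.

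The sequences upstream of the 3 genes that were higher with NCT503 are shown because metal response elements lie near the start of these genes. Each line holds the 250 bases before the first base of the RefSeq gene, read on the strand of the gene (RefSeq, build GRCm38.p6), namely chr8:94178839-94179088 for Mt1, chr8:94172368-94172617 for Mt2 and chr1:191906531-191906780 for Slc30a1, all on the plus strand. Capitals mark the core of the metal response element, TGCACNC or TGCGCNC, searched on both strands, where a match on the minus strand reads GNGTGCA or GNGCGCA.
Mt1: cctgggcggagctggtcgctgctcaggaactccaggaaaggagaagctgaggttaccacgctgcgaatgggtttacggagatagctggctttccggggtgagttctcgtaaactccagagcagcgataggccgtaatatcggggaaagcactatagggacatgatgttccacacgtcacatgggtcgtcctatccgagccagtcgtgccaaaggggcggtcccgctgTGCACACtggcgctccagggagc
Mt2: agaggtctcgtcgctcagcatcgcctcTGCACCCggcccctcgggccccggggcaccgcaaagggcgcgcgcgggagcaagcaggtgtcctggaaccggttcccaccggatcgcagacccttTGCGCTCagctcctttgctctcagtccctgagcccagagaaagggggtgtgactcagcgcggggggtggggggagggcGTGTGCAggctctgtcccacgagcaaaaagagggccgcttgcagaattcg
Slc30a1: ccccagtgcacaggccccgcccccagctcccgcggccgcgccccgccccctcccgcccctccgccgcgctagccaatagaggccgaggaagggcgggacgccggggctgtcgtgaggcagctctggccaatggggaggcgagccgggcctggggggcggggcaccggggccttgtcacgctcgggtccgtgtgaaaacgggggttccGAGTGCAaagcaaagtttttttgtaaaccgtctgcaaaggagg

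The Mt2 window held 3 matches, TGCACCC starting 223 bases before the gene start, TGCGCTC at 128 bases and TGCACAC on the minus strand at 50 bases. The Mt1 window held 1 match, TGCACAC at 23 bases, and the Slc30a1 window held 1 match, TGCACTC on the minus strand at 43 bases. Of the other 7 genes 6 had a window in the same table, and Slc30a5 had 1 match while Mtf1, Slc30a6, Slc30a7, Slc39a1 and Slc39a10 had none. Of all 32851 windows of this length 7032 (21.4%) held at least 1 match and 415 (1.26%) held at least 3. GENCODE M21 annotates further starts after the first start of each gene, at 129 and 159 bases for Mt1, 196 for Mt2 and 489 for Slc30a1. The stretch just before those starts is not in the windows shown. Counted after the levels of these genes were known, the first 180 bases of the annotated Mt1 transcript held 4 more matches, those of Mt2 held 3 and those of Slc30a1 held 1. Among 21218 protein-coding transcripts, 4097 (19.3%) held at least 1 match in their first 180 bases, 128 (0.603%) held at least 3 and 17 (0.0801%) held at least 4. These matches describe letters only, and binding of MTF1 was not measured.

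The libraries held 20295862 to 23599685 assigned reads over the 21434 genes present in both tables. Levels below are normalized reads, which are reads divided by 1 size factor per library, on a scale common to the 9 libraries. Log2 fold changes are of log2(normalized reads + 1) with their SE from limma. Those of LPS with NCT503 over LPS and of LPS over control come from the authors' own scale of each table, and those of LPS with NCT503 over control come from the common scale. The size factors were 0.924 to 0.981 in LPS with NCT503, 0.733 to 0.868 in LPS alone and 1.25 to 1.46 in control. Scaling by library totals alone (CPM scaling) moves the median of all genes by 0.23 on the log2 scale for LPS with NCT503 over LPS, by −0.63 for LPS over control and by −0.42 for LPS with NCT503 over control. With it, 67.3%, 19.7% and 27.2% of the genes called in these comparisons were higher, in place of 52.0%, 48.9% and 51.3%.

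Mt1 (ENSMUSG00000031765, mm10 chr8:94179082-94180327, plus strand) had 32232, 39272 and 36928 normalized reads in LPS with NCT503, 1260, 1988 and 1678 in LPS alone, and 1816, 2433 and 3142 in control. Every library with NCT503 lay above every library of the other groups, and the libraries of LPS alone overlapped those of control. The means were 36144 ± 3585, 1642 ± 365 and 2464 ± 663 (SD, n = 3 each). On the log2 scale, LPS with NCT503 over LPS was 4.48 ± 0.20, which is 22.3-fold, and that over control was 3.91 ± 0.20. The log2 fold change of LPS over control was −0.57 ± 0.22, and −1.27 under CPM scaling. As RPM, reads scaled to the library total and not to size factors, Mt1 had 1616 ± 193 in LPS with NCT503, 61.2 ± 8.73 in LPS alone and 149 ± 27.7 in control. With NCT503 it ranked between place 51 and place 82 among all genes by RPM, against places 2259 to 3000 in LPS alone and 1005 to 1612 in control. In bulk RNA, fewer cells of a type and less RNA per cell cannot be told apart, here and in all levels below.

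Mt2 (ENSMUSG00000031762, chr8:94172664-94173568, plus strand), the neighbour of Mt1, was the less abundant of the pair. It had 1908, 3125 and 2519 normalized reads in LPS with NCT503, 50.7, 50.5 and 86.5 in LPS alone, and 30.1, 45.5 and 70.5 in control. The libraries with NCT503 again stood apart from all others, and those of LPS alone and control overlapped. Its log2 fold change of LPS with NCT503 over LPS was 5.32 ± 0.26, a 40.1-fold difference, and that over control was 5.72 ± 0.29. With LPS over control the value was 0.40 ± 0.35, and it turned to −0.29 under CPM scaling. Behind these levels lay 1872, 3003 and 2327 reads in LPS with NCT503, 44, 37 and 66 in LPS alone, and 44, 65 and 88 in control.

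Slc30a1 (ENSMUSG00000037434, chr1:191906767-191913247, plus strand) encodes ZnT1, the exporter that carries zinc across the plasma membrane out of the cell. It had 15714, 10873 and 15978 normalized reads in LPS with NCT503, 1134, 1184 and 1592 in LPS alone, and 1550, 1430 and 1340 in control. Library 2 of LPS with NCT503 was the lowest of its group and still lay far above every library of the other groups, which overlapped each other. LPS with NCT503 over LPS gave a log2 fold change of 3.44 ± 0.21, which is 10.9-fold, and that over control was 3.28 ± 0.18. LPS over control gave −0.15 ± 0.16, and −0.86 under CPM scaling. Slc30a1 had 633 ± 126 RPM in LPS with NCT503, 49.0 ± 9.04 in LPS alone and 88.6 ± 14.2 in control.

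**Figure D1:**
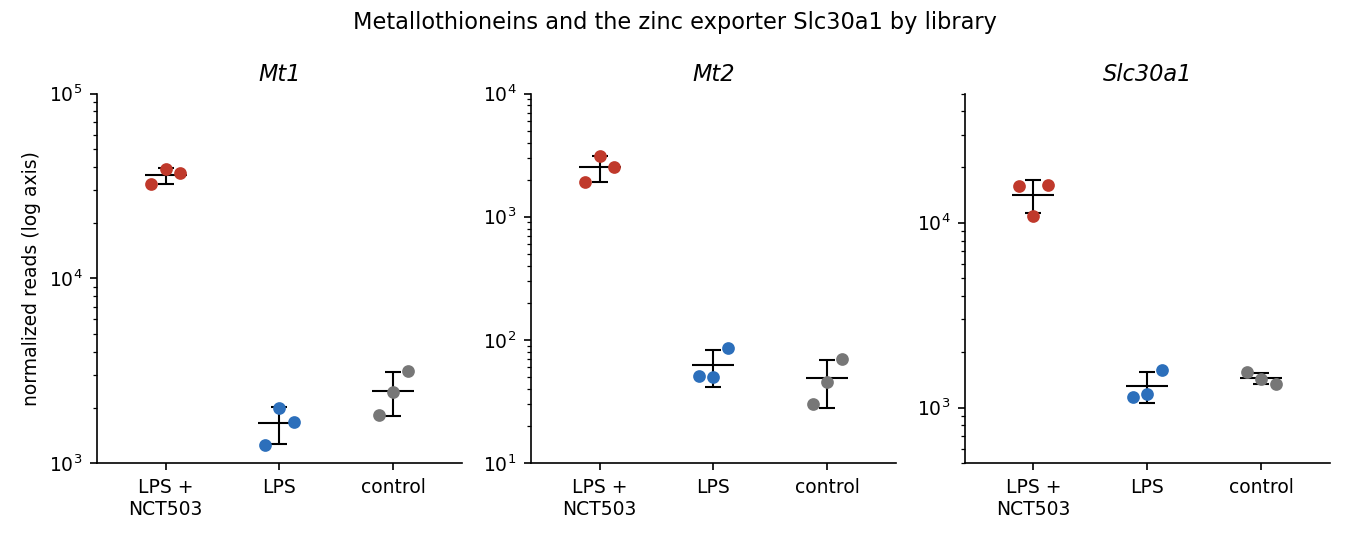
Normalized reads of Mt1, Mt2 and Slc30a1 (log axes) in LPS with NCT503, LPS alone and control, with points for libraries and lines for the mean ± SD (n = 3 each). In each panel the 3 libraries with NCT503 lie above all others, for Mt1 at 32232 to 39272 against 1260 to 3142 normalized reads.

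Ordered by fold change of LPS with NCT503 over LPS, Mt2 stood at place 18, Mt1 at place 41 and Slc30a1 at place 136 of 19795 genes tested. The same genes stood at places 6608, 13523 and 10751 of 19975 in LPS over control. Of the other 7 genes, none was above place 7700 in the first order, which was that of Slc30a5, and Slc39a14 stood at place 382 in the second. The authors' deposited table gave log2 fold changes of LPS with NCT503 over LPS of 4.46 for Mt1, 5.33 for Mt2 and 3.45 for Slc30a1. For LPS over control the authors' deposited table gave −0.58 for Mt1, 0.37 for Mt2 and −0.14 for Slc30a1, and its adjusted p for Mt1 was 0.0363, where limma made no call. In the 14 other ways of processing, the values for these 3 genes ran from 4.30 to 4.72, from 5.16 to 5.58 and from 3.34 to 3.68.

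The pair of metallothioneins also differed in their proportion. Per kilobase of gene length as the files give it, Mt1 exceeded Mt2 by 5.93 to 7.97 times in the libraries of LPS with NCT503, by 9.15 to 18.6 times in those of LPS alone and by 21.0 to 28.5 times in those of control. The 3 ranges do not overlap. On the same per-kilobase scale the mean levels of Mt1 were 29008 ± 2877, 1318 ± 293 and 1977 ± 532 normalized reads, and those of Mt2 were 4281 ± 1034, 106 ± 35.3 and 82.8 ± 34.7, in the same order of groups.

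Reads of overlapping genes limit some of these values, since the strand setting of the counting is not given in the sources used here. Of the 588 exon bases of Mt2 432 (73.5%) lie opposite Gm45774, an annotated antisense gene, and reads of these genes cannot be told apart without strand. Gm45774 had 17, 18 and 18 reads in LPS with NCT503 and 0 in each library of LPS alone. Genes on the opposite strand overlap 8.92% of the exon bases of Slc30a1 (1700034H15Rik) and 8.09% of those of Mtf1 (1110065P20Rik), while the exons of Mt1 overlap those of no other gene. No 50-base stretch of the Mt1 transcripts occurs in a transcript of another gene. Upstream of Mt2 on the same chromosome, Mt3, a metallothionein best known from the brain, was near the limit of detection at 0 to 4.90 normalized reads in all libraries.

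Mtf1 (chr4:124802104-124849800, plus strand) had 803, 584 and 726 normalized reads in LPS with NCT503, 647, 596 and 569 in LPS alone, and 495, 497 and 516 in control. The libraries with NCT503 overlapped those of LPS alone, and all 6 lay above control on this scale. Its log2 fold change was 0.21 ± 0.18 for LPS with NCT503 over LPS and 0.47 ± 0.16 for LPS with NCT503 over control, and 0.023 under CPM scaling. It was 0.27 ± 0.14 for LPS over control and turned to −0.43 under CPM scaling. The mRNA level of the factor thus differed by far less between groups than the levels of Mt1, Mt2 and Slc30a1. The activity of MTF1, which zinc controls at the protein level, was not measured.

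The exporters Slc30a5, Slc30a6 and Slc30a7, which move zinc into the Golgi and secretory pathway, did not share the pattern of Slc30a1. Slc30a5 (ZnT5, chr13:100802648-100833427, minus strand) had 601, 614 and 568 normalized reads in LPS with NCT503, 552, 412 and 424 in LPS alone, and 1047, 1040 and 1001 in control. Both LPS groups lay below control, and every library with NCT503 lay above those of LPS alone. Its log2 fold change was 0.38 ± 0.18 for LPS with NCT503 over LPS, −1.16 ± 0.16 for LPS over control and −0.79 ± 0.14 for LPS with NCT503 over control.

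Slc30a6 (ZnT6, chr17:74395608-74424229, plus strand), whose protein pairs with ZnT5, went the other way. It had 369, 371 and 341 normalized reads in LPS with NCT503, 452, 558 and 488 in LPS alone, and 167, 180 and 241 in control. The 3 groups did not overlap, with LPS alone the highest and control the lowest. Its log2 fold change was −0.46 ± 0.18 for LPS with NCT503 over LPS, 1.36 ± 0.19 for LPS over control and 0.89 ± 0.19 for LPS with NCT503 over control.

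Slc30a7 (ZnT7, chr3:115938973-116007406, minus strand) had 563, 428 and 495 normalized reads in LPS with NCT503, 942, 821 and 1007 in LPS alone, and 633, 570 and 583 in control. LPS alone was the highest group, and the libraries with NCT503 lay just below those of control. It had a log2 fold change of −0.90 ± 0.18 for LPS with NCT503 over LPS and −0.27 ± 0.16 for LPS with NCT503 over control. For LPS over control the value was 0.63 ± 0.15, which turned to −0.068 under CPM scaling. The pseudogenes Gm43106 and Gm6649 on the opposite strand overlap 637 and 1165 of its 11116 exon bases.

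The importers described here, Slc39a1, Slc39a14 and Slc39a10, were higher in LPS alone than with NCT503. Among the other importers, tested below, Slc39a6 and Slc39a12 went the other way. Slc39a4 and Slc39a13 went the same way, and 7 were not called. Slc39a1 (ZIP1, chr3:90248172-90253612, plus strand), an importer of the plasma membrane, had 3688, 4262 and 3239 normalized reads in LPS with NCT503, 9248, 13519 and 11890 in LPS alone, and 2725, 3189 and 3923 in control. LPS alone stood above every other library, and the libraries with NCT503 overlapped those of control. It had a log2 fold change of −1.62 ± 0.19 for LPS with NCT503 over LPS and 1.82 ± 0.19 for LPS over control. For LPS with NCT503 over control it was 0.19 ± 0.18, and −0.26 under CPM scaling. Of the 50-base stretches of Slc39a1 transcripts 21.8% also occur in the pseudogene Slc39a1-ps, which had 9 to 23 reads in LPS with NCT503, 33 to 43 in LPS alone and 13 to 31 in control.

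Slc39a14 (ZIP14, chr14:70303469-70351425, minus strand) imports zinc, iron and manganese. It had 1930, 1615 and 1909 normalized reads in LPS with NCT503, 2901, 2444 and 2648 in LPS alone, and 256, 241 and 250 in control. Both LPS groups were far above control, and the group with NCT503 lay below LPS alone in every library. Slc39a14 had a log2 fold change of −0.55 ± 0.16 for LPS with NCT503 over LPS, 3.42 ± 0.14 for LPS over control and 2.86 ± 0.15 for LPS with NCT503 over control.

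Slc39a10 (ZIP10, chr1:46807544-46892852, minus strand), an importer of the plasma membrane, had the lowest mean level per kilobase of the 10 in both LPS groups, while in control Slc39a14 was lower, at 23.6 against 37.5 normalized reads per kilobase. It had 27.5, 22.9 and 16.2 normalized reads in LPS with NCT503, 77.2, 54.5 and 73.4 in LPS alone, and 280, 216 and 189 in control. The groups did not overlap, with LPS with NCT503 the lowest and control the highest. Its log2 fold change was −1.59 ± 0.31 for LPS with NCT503 over LPS, −1.72 ± 0.23 for LPS over control and −3.32 ± 0.27 for LPS with NCT503 over control. The values in LPS with NCT503 rest on 27, 22 and 15 reads.

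**Figure D2:**
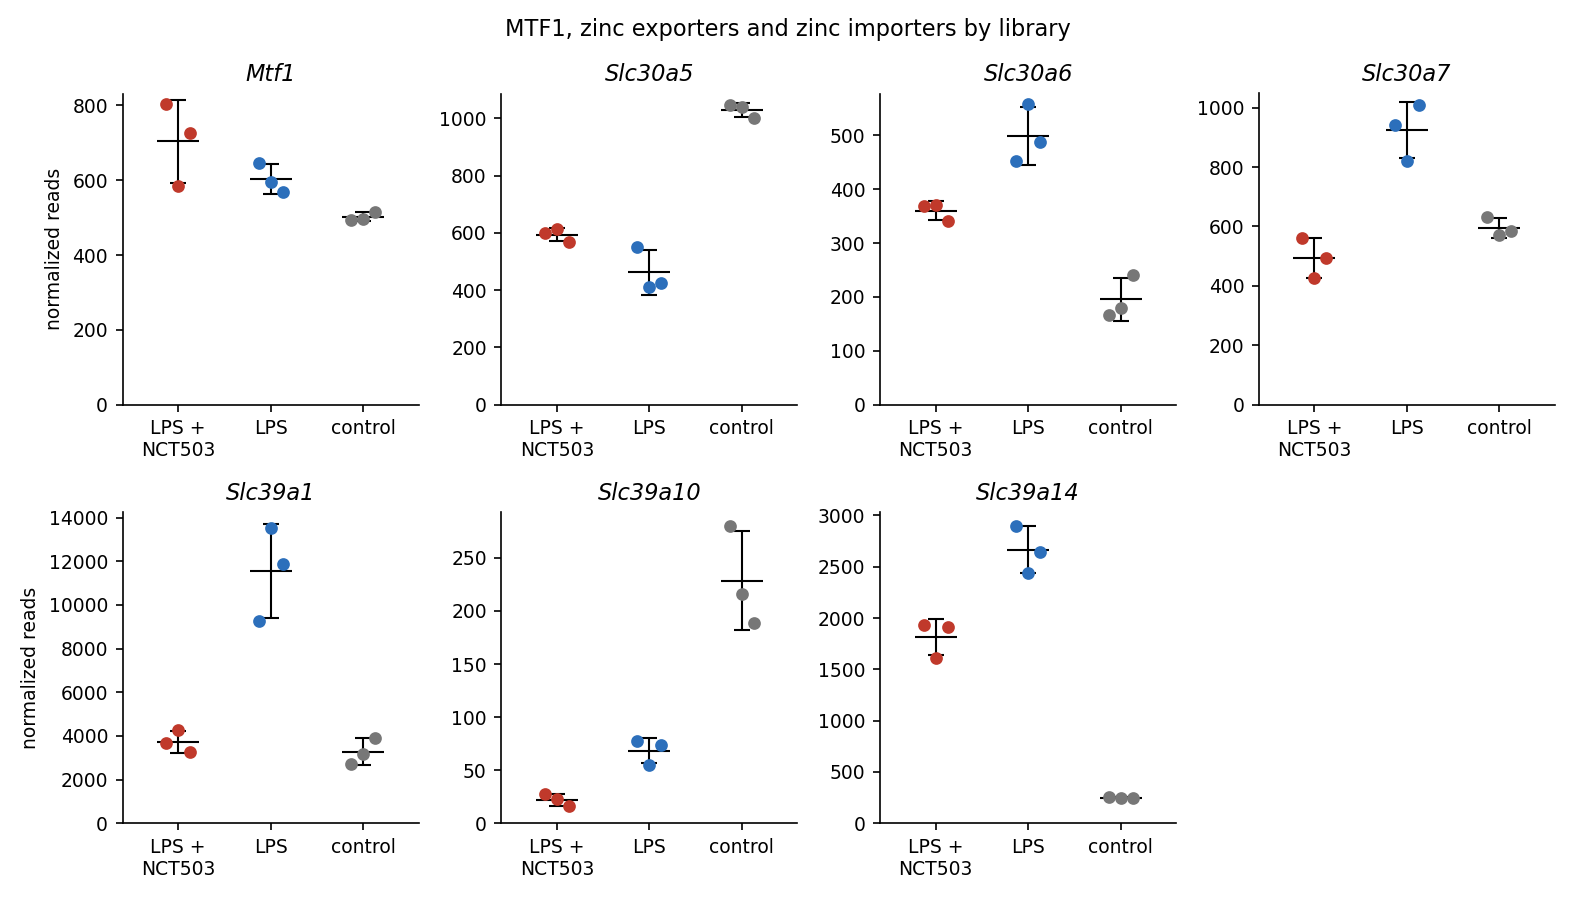
Normalized reads (linear axes from 0) of Mtf1, the exporters Slc30a5, Slc30a6 and Slc30a7 and the importers Slc39a1, Slc39a10 and Slc39a14 in LPS with NCT503, LPS alone and control, with points for libraries and lines for the mean ± SD (n = 3 each). Slc39a1 is high in LPS alone (9248 to 13519), Slc39a14 is low in control (241 to 256) and Slc39a10 is highest in control (189 to 280).

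In LPS with NCT503 over LPS, 7 of the 10 genes had an adjusted p under 0.05 in limma, 3 higher (Mt1, Mt2 and Slc30a1) and 4 lower (Slc30a7, Slc39a1, Slc39a10 and Slc39a14), where 32.6% of all genes tested did, 16.9% higher and 15.7% lower. In LPS over control 6 did, 4 higher and 2 lower, against 41.8% of all genes (20.5% higher, 21.4% lower). In LPS with NCT503 over control 8 did, 6 higher and 2 lower, against 40.4% (20.7% higher, 19.7% lower). Groups that do not overlap were found for 9 of the 10 genes in LPS with NCT503 over LPS, 4 higher and 5 lower, where 44.9% of all genes had them (22.9% higher, 22.0% lower). In LPS over control 7 genes had them, 5 higher and 2 lower, against 50.8% (24.4% higher, 26.5% lower), and in LPS with NCT503 over control 9 had them, 6 higher and 3 lower, against 50.2% (25.3% higher, 24.9% lower). The 10 genes were chosen with these contrasts known, so nothing is read from these counts. The comparisons also share libraries, LPS alone in the first and second and LPS with NCT503 and control in the third. The median log2 fold change of the 10 genes was −0.12, 0.33 and 0.68 in the 3 comparisons, beside 0.08, −0.05 and 0.05 over all genes tested.

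**Figure D3:**
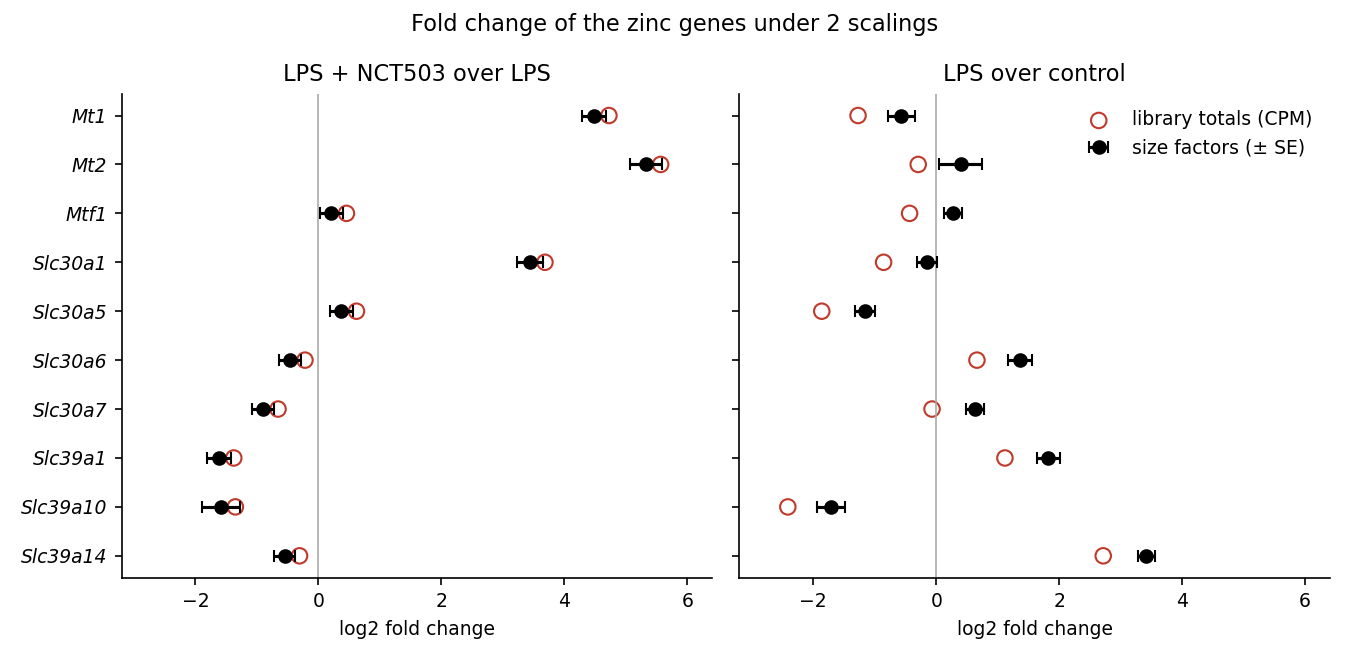
Log2 fold changes of the 10 genes in LPS with NCT503 over LPS and in LPS over control, with filled points ± SE for the size factor scaling and open points for CPM scaling. Mt2 (5.32), Mt1 (4.48) and Slc30a1 (3.44) stand apart in the left panel, and in LPS over control CPM scaling moves every gene to lower values, across 0 for Mt2, Mtf1 and Slc30a7.

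Across the 9 libraries, the genes whose centred log2 levels were most like the mean of Mt1 and Mt2 included Fcho1 (Pearson r = 0.997), Trib3 (0.993), Gde1 (0.993), Lonp1 (0.992) and Ddit3 (0.992), among 10772 genes with a named symbol and at least 50 normalized reads in 1 group. Slc30a1 stood at place 36 in this order (r = 0.981). Those most like Slc30a1 included Trio (0.995), Lrp8 (0.993), Afg3l2 (0.991), Ptp4a1 (0.990) and Ago2 (0.990), with Mt1 at place 45 and Mt2 at place 61. Fcho1 averaged 932 ± 52.8 normalized reads in LPS with NCT503, 303 ± 41.7 in LPS alone and 308 ± 26.5 in control (SD, n = 3 each). Of the other members Mtf1 came next, with r of 0.665 to the metallothioneins and 0.709 to Slc30a1, and Slc39a10 was the least alike, at −0.839 and −0.810. The points share 9 libraries in 3 groups, so that r reflects mainly the group means, and it is given as a description.

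The rest of the zinc genes were tested as a list of 23, of which 19 had enough reads, and Mt4, Slc30a3, Slc30a8 and Slc30a10 did not. In LPS with NCT503 over LPS 5 rose and 2 fell, in limma with p-values adjusted over all genes, with a median log2 fold change of 0.32, beside 0.08 over all genes. The 7 called stand beside 32.6% of all genes called (16.9% higher, 15.7% lower). The labels do not say that the 3 libraries of a group came from separate cultures or animals, so these p-values measure only the spread between libraries. Mcoln1, a cation channel of the lysosome, rose to 3439, 4252 and 3355 normalized reads in LPS with NCT503, against 1317, 1800 and 1356 in LPS alone (log2 1.31 ± 0.19, adjusted p = 0.000294). Trpm7, a channel and kinase that conducts magnesium and zinc, rose to 1963, 875 and 2099 normalized reads, against 670, 340 and 354 in LPS alone (log2 1.83 ± 0.35, adjusted p = 0.00195). The importer Slc39a6 rose by 0.92 ± 0.18 (adjusted p = 0.00249). The exporter Slc30a4 rose by 1.01 ± 0.26 (adjusted p = 0.0122), a call lost without library 3 of LPS with NCT503 (0.90) or library 2 of LPS (0.76). None of these rises reached the smallest of the 3 fold changes described above, 3.44 for Slc30a1. Those 3 genes were chosen for being higher with NCT503, so nothing is read from this. Like them, Mcoln1 (−0.26 ± 0.16), Trpm7 (−0.70 ± 0.28) and Slc30a4 (0.41 ± 0.37) were not called by limma in LPS over control. Under CPM scaling Mcoln1 (−0.96) and Trpm7 (−1.40) were called lower there, Trpm7 also under TMM scaling (−0.80). A rise with NCT503 and not with LPS alone was thus not particular to the chosen genes.

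Slc39a12, the last of the 5, rests on 4, 2 and 2 reads in LPS with NCT503 and on 0 in every library of LPS alone, so it was at least 2.20-fold higher against a floor of 3 reads over the group (adjusted p = 0.0267, lost without library 1 or 3 of LPS with NCT503 or any library of LPS). Of the genes that fell, the importer Slc39a13 (ZIP13) of the secretory pathway had 195, 378 and 237 normalized reads in LPS with NCT503, against 1531, 1991 and 1292 in LPS alone (log2 −2.60 ± 0.26, adjusted p = 2.29e-05). Slc39a4, best known for zinc uptake in the gut, fell by 0.83 ± 0.20 on the log2 scale (adjusted p = 0.00773).

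In LPS over control 2 of the 19 rose and 4 fell, with a median log2 fold change of −0.22, where 41.8% of all genes were called (20.5% higher, 21.4% lower). The split of the list was 2 higher and 6 lower under TMM scaling, and 1 higher and 8 lower under CPM scaling. Slc39a13 rose by 1.96 ± 0.18 (adjusted p = 5.85e-06) and Slc39a4 by 0.76 ± 0.18 (adjusted p = 0.00595), and Slc39a4 was not called under CPM scaling (0.06). Slc39a6 (−0.57 ± 0.17, adjusted p = 0.0176), Slc39a8 (−0.94 ± 0.28, adjusted p = 0.0183) and Slc39a11 (−0.76 ± 0.22, adjusted p = 0.0168) fell. Slc39a12, with 0 reads in LPS alone and 2, 4 and 5 in control, was at least 2.09-fold lower (adjusted p = 0.0180). These 4 falls depend on single libraries. The call of Slc39a6 was lost without library 2 or 3 of LPS or of control (−0.53 to −0.48), that of Slc39a8 without library 3 of LPS or library 2 or 3 of control (−0.82 to −0.74), that of Slc39a11 without library 1 or 3 of LPS or library 2 or 3 of control (−0.77 to −0.57), and that of Slc39a12 without library 2 or 3 of control. Without library 2 of control 2 genes of the list were called, without library 3 of control 3 were, and without library 3 of LPS 3 were, against 6 with all libraries.

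In LPS with NCT503 over control 5 of the 19 rose and 2 fell, with a median of −0.05, where 40.4% of all genes were called (20.7% higher, 19.7% lower). The split turned round under CPM scaling, to 1 higher and 6 lower, with Slc39a3 (−1.02), Slc39a4 (−0.53), Slc39a11 (−0.90) and Slc39a13 (−1.10) then called lower as well, and it was 4 higher and 3 lower under TMM scaling. Mcoln1 rose by 1.04 ± 0.15 (adjusted p = 0.000326), Slc30a4 by 1.42 ± 0.35 (adjusted p = 0.00927), the mitochondrial transporter Slc30a9 by 0.69 ± 0.16 (adjusted p = 0.00711) and Trpm7 by 1.12 ± 0.35 (adjusted p = 0.0293). Under CPM scaling Mcoln1 was still called (0.59), and Slc30a4 (0.97), Slc30a9 (0.24) and Trpm7 (0.67) were not. The call of Trpm7 was also lost without library 1 or 3 of LPS with NCT503 or library 2 or 3 of control (0.89 to 1.16). Slc39a2 rose as well (adjusted p = 0.0451), with 14, 109 and 10 reads in LPS with NCT503 and 8, 2 and 9 in control, so that its log2 fold change of 2.45 ± 0.85 becomes 1.42 and is not called without library 2 of LPS with NCT503, nor is it without any library of control (1.91 to 2.80) or under TMM (2.41) or CPM scaling (2.08). Slc39a8 (−0.89 ± 0.25, adjusted p = 0.0167) and Slc39a9 (−0.72 ± 0.14, adjusted p = 0.00248) fell, the call of Slc39a8 being lost without library 3 of LPS with NCT503 or library 2 or 3 of control (−0.86 to −0.77). Without library 2 or library 3 of control, 4 genes of the list were called in place of 7.

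**Figure D4:**
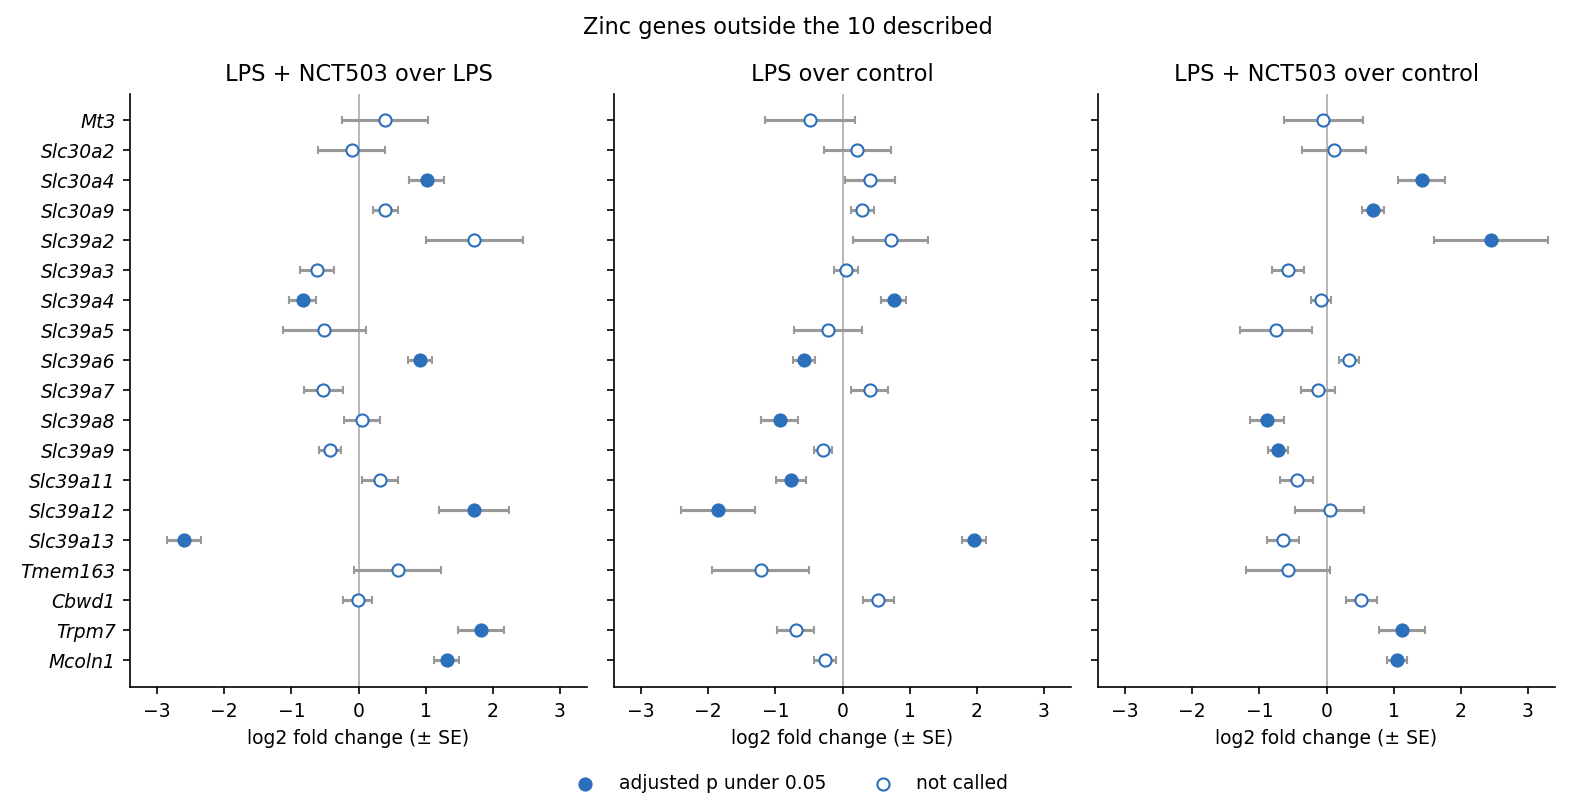
Log2 fold changes (± SE) of the 19 tested zinc genes outside the 10 described, in LPS with NCT503 over LPS, LPS over control and LPS with NCT503 over control, with filled points for an adjusted p under 0.05 in limma. The values lie between −2.60 (Slc39a13) and 1.83 (Trpm7) in the first comparison; the fitted value of Slc39a12 depends on the pseudocount, since LPS alone had no reads.

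Genes that mouse or human work names as targets of MTF1 outside the 10 did not move as one, with 2 of 4 higher and 1 lower in LPS with NCT503 over LPS, beside 16.9% and 15.7% of all genes. Gclc, the catalytic subunit of glutathione synthesis, rose to 2211, 1719 and 1987 normalized reads in LPS with NCT503, against 445, 326 and 315 in LPS alone (log2 2.45 ± 0.19, adjusted p = 4.92e-06). Ndrg1, a stress-induced gene, rose by 1.32 ± 0.16 (adjusted p = 8.55e-05). Csrp1, a LIM domain protein, fell by 0.70 ± 0.22 on the log2 scale (adjusted p = 0.0287), a call lost under CPM scaling (−0.45) and without library 1 or 3 of LPS with NCT503 or library 2 or 3 of LPS (−0.71 to −0.57). Selenow, a small selenoprotein, did not pass (0.10 ± 0.23, adjusted p = 0.767). Of the 4, 3 rose and 0 fell in LPS over control, with Gclc the exception at −0.40 ± 0.17 (adjusted p = 0.0896), and in LPS with NCT503 over control all 4 rose. Under CPM scaling Selenow was not called in LPS over control (0.34), and Gclc was called lower there under CPM (−1.10, adjusted p = 0.00220) and TMM scaling (−0.50, adjusted p = 0.0409).

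Copper handling genes were listed because metallothioneins also bind copper. Of 9 tested, 1 rose and 4 fell in LPS with NCT503 over LPS (median −0.18), beside 16.9% and 15.7% of all genes. Slc31a1, the copper importer, had 2251, 2090 and 2092 normalized reads in LPS with NCT503, against 5983, 5246 and 5918 in LPS alone (log2 −1.41 ± 0.16, adjusted p = 4.95e-05), and Sco1, which delivers copper to cytochrome oxidase, fell by 1.76 ± 0.25 on the log2 scale (adjusted p = 0.000322). The copper chaperone gene Cox17 rose by 1.00 ± 0.30, with an adjusted p of 0.0253 that is above 0.05 without library 1 or 3 of LPS with NCT503 or library 2 or 3 of LPS (0.0908 to 0.110). Commd1, a regulator of copper export, fell by 0.68 ± 0.21 on the log2 scale (adjusted p = 0.0298), a call lost without the same libraries and under CPM scaling. In LPS over control 3 of the 9 rose and 0 fell (median 0.49), beside 20.5% and 21.4% of all genes. In LPS with NCT503 over control 2 rose and 0 fell, beside 20.7% and 19.7%. In LPS over control Ccs was called lower under TMM (−0.62) and CPM scaling (−1.22), and Atp7a under CPM scaling (−0.91). In LPS with NCT503 over control Atox1 (−0.60), Ccs (−0.90) and Commd1 (−0.74) were called lower under CPM scaling.

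Genes that respond to cadmium and oxidants, which also induce metallothioneins, rose in 8 of 8 cases in LPS with NCT503 over LPS (median 1.73), in 7 of 8 in LPS over control (median 1.98) and in 8 of 8 in LPS with NCT503 over control (median 3.51). These genes overlap stress lists already tested on these libraries, so the counts are not independent of earlier results. Of all genes tested 16.9%, 20.5% and 20.7% were called higher in these comparisons, and Gclm was not called in LPS over control under CPM scaling (0.057). Srxn1, which repairs oxidized peroxiredoxins, rose to 35565, 39987 and 31478 normalized reads in LPS with NCT503, against 7778, 8917 and 7940 in LPS alone (log2 2.12 ± 0.16, adjusted p = 4.69e-06). Slc7a11, the cystine importer subunit, rose by 2.46 ± 0.27 (adjusted p = 5.06e-05), and the heat shock genes Hspa1a (2.85 ± 0.24, adjusted p = 8.11e-06) and Hspa1b (2.72 ± 0.24, adjusted p = 1.05e-05), which are near-identical and therefore uncertain, rose as well. Of the 7 glucocorticoid-responsive genes, listed because steroids raise metallothionein mRNA, 3 rose and 0 fell with NCT503 over LPS (median 0.26), beside 16.9% and 15.7% of all genes. These were Sgk1 (2.40 ± 0.19, adjusted p = 4.46e-06), Klf9 (2.15 ± 0.23, adjusted p = 3.78e-05) and Tsc22d3 (1.63 ± 0.25, adjusted p = 0.000441), while Dusp1 did not pass (−0.43 ± 0.17, adjusted p = 0.0797). Of the 7, 3 rose and 2 fell in LPS over control, beside 20.5% and 21.4% of all genes. In LPS with NCT503 over control 4 rose and 2 fell, beside 20.7% and 19.7%. The genes that fell were Tsc22d3 (−1.63 ± 0.18) and Zbtb16 (−1.53 ± 0.45). Tsc22d3 averaged 424 normalized reads in LPS with NCT503, 138 in LPS alone and 1299 in control. It was thus higher with NCT503 than in LPS alone, but stayed below control. Under CPM scaling Sgk1 (0.23) and Per1 (−0.21) were not called in LPS over control, and Klf9 (−1.03) and Fkbp5 (−0.64) were called lower. Per1 also lost its call there under TMM scaling (0.39), and in LPS with NCT503 over control under CPM scaling (0.30).

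Marker genes were summed as RPM to check the labelled cell type. The 8 macrophage markers summed to 8752 to 11094 RPM in LPS with NCT503, 13307 to 14444 in LPS alone and 18348 to 19516 in control, with none at 0. Lyz2 was the largest part of this sum, with 85148 to 131440 reads in LPS with NCT503, 176497 to 185992 in LPS alone and 263383 to 297233 in control. The sums, and the reads of Lyz2 and Cd4 given here, are not divided by size factors, which were highest in control. As normalized reads, Lyz2 averaged 107188 in LPS with NCT503, 232725 in LPS alone and 206169 in control. Its log2 fold change of LPS over control was 0.19 ± 0.17 on size factors and was not called. The 8 fibroblast and stromal markers summed to 701 to 1862, 670 to 1302 and 335 to 1701, in the same order of groups, and the 6 T, B and natural killer cell markers in the tables to 141 to 224, 66.5 to 88.5 and 214 to 428. That last sum is almost wholly Cd4, with 3003 to 4997 reads in LPS with NCT503, 1328 to 1779 in LPS alone and 4669 to 9199 in control, against at most 56 reads of any other gene of its list in a library. The 7 neutrophil markers in the tables summed to 10.8 to 22.4, 98.2 to 213 and 239 to 455, with Retnlg at 0 with NCT503. The 8 mast cell, basophil and eosinophil markers summed to 12.6 to 13.6, 116 to 160 and 119 to 160, with Epx at 0 with NCT503. In limma, 6 of 7 neutrophil markers and 8 of 8 of the mast cell list fell in LPS with NCT503 over LPS. So did 4 of 6 of the T, B and natural killer list, 3 of 8 stromal and 3 of 8 macrophage markers. Only 1 macrophage marker and Cd4 rose, and of all genes tested 15.7% fell and 16.9% rose. These calls are on size factors, where Cd68 and Csf1r were called in none of the 3 comparisons. In LPS over control 3 macrophage markers rose and 1 fell, beside 20.5% and 21.4% of all genes. In LPS with NCT503 over control 0 rose and 3 fell, beside 20.7% and 19.7%. Under CPM scaling, on library totals as the sums are, Csf1r (−0.68), Cd68 (−0.40), Lyz2 (−0.52) and Mertk (−0.62) were called lower in LPS over control. Adgre1 (−0.19) and Itgam (0.09) then lost their calls there. In LPS with NCT503 over control Csf1r (−0.36), Adgre1 (−0.30) and Mrc1 (−0.68) were then called lower as well. Mertk lost its call in LPS with NCT503 over LPS (−0.64). Only the mast cell sum, lower where Mt1, Mt2 and Slc30a1 were higher, set LPS with NCT503 apart while LPS alone and control overlapped. The part of the marker differences in the results was not tested.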

How the data were processed

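Total RNA of 9 libraries was sequenced, and per the submitters' processing notes the reads were aligned with TopHat2 to mm10. The counter, its annotation and strand setting, and the test behind the tables, were not given in the sources used here. For each of 2 contrasts the authors deposited a table with normalized signal values per library, log2 fold changes and p-values. Each deposited signal value was taken as a whole number of reads divided by 1 size factor per library. Of the values 100% came out whole within a tolerance of 0.001 times the read number, which any value meets at high read numbers. The reads of LPS alone were equal in both tables. From these reads, size factors for all 9 libraries were computed on 15052 genes.

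The main test was limma 3.58.1 (R 4.3.3, trend and robust) on log2(value + 1), for genes with a mean of at least 1 in a group, with Benjamini-Hochberg adjustment over all genes tested and a threshold of 0.05. It called 6449 genes in LPS with NCT503 over LPS, 8355 in LPS over control and 8061 in LPS with NCT503 over control. On the recovered reads edgeR 4.0.16 (quasi-likelihood) called 6087, 7769 and 7546, and DESeq2 1.42.0 called 6225, 7813 and 7676. The steps were tested on simulated data. Alternatives were a pseudocount of 0.1, no filter, TMM and CPM scaling, both count tests, all 9 libraries in 1 fit, a replicate block and leaving out each library. The 10 genes and all lists were chosen with earlier results of these data known. All members and other zinc genes past the test were named, with up to 4 genes per further list by smallest p and up to 6 per likeness profile, of which 1 gene is not reported here. Promoters came from RefSeq (GRCm38.p6), and transcripts and overlaps from GENCODE M21.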

Additional observations from a re-analysis of the deposited data

How the results depend on the processing

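Among the 14 alternatives, 78 of 84 counts of called genes stayed within 1.5 times the reported count, and 1004 of 1074 values of list genes called as reported kept their direction and call. Of the 420 values of the 10 genes 393 moved by less than 1 SD. Of these values 4 took the other sign, all under CPM scaling, which were Mt2 (−0.29), Mtf1 (−0.43) and Slc30a7 (−0.068) in LPS over control and Slc39a1 (−0.26) in LPS with NCT503 over control; only Slc30a7 had been called. Among list genes called as reported, Per1, a glucocorticoid-responsive gene, reversed in LPS over control under CPM scaling (−0.21), which moves the median of all genes there by −0.63. Without single libraries, the number of other zinc genes called ran from 5 to 9 in LPS with NCT503 over LPS, from 2 to 7 in LPS over control and from 4 to 9 in LPS with NCT503 over control, and the number of all genes called from 4334 to 7304, from 6432 to 8553 and from 5808 to 9141. With a replicate block, 11 other zinc genes were called in LPS with NCT503 over LPS in place of 7, 7 in LPS over control in place of 6 and 8 in LPS with NCT503 over control in place of 7, and 8186, 9714 and 8098 genes in all. Whether the numbers pair the libraries is not settled. The deviations of same-numbered libraries correlated at −0.119 to 0.429, −0.0303 to 0.255 and −0.312 to 0.116. Not every library correlated best with its own number, but with 3 libraries per group such correlations cannot decide on pairing. Depth limits Slc39a12, Slc39a2, Slc39a10 and Mt3, which rest on few reads, and groups of 3 libraries limit all SDs.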
